A study of Mus musculus with 34 samples.

Results

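The very long contacts were the chromosome contacts, measured by Hi-C in activated mouse B cells, whose anchor centres lay 3000000 bp (3 Mb) or more apart on the same chromosome. They were selected on that distance alone from the authors' filtered list of enhancer-promoter contacts, after repeated rows were merged. They made up 2960 of the 27903 distinct contacts (10.6%). The list went no further than 14.96 Mb, so distances beyond that were not analysed here.

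The cells were splenic B cells without CD43 from C56BL/6J mice (spelled as in the deposited design) aged 6 to 8 weeks. For the activated groups they were cultured with the bacterial cell wall component LPS at 10 µg/ml for 3 days. Hi-C comprised 2 replicates sequenced in 7 runs, deposited as 1 contact list over all of them. RNA was measured in 2 activated and 2 resting samples, and accessible DNA (FAIRE), H3K27ac, H3K4me3 and enhancer activity of transfected fragments (STARR) each came as 1 peak list from activated cells. The resting samples carry the same LPS culture text in their labels as the activated ones, so the labels do not settle how resting cells were handled. Nothing in the labels says that replicates came from separate animals, so the p-values reflect how far these few samples differ among themselves, and part of that may be technical.

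Hi-C joins DNA ends that lie close together in the nucleus and counts the joined pairs by sequencing. Contacts between an enhancer and the promoter it acts on usually fall within the same topological domain, and contacts over many megabases more often bring together regions of the same activity state, such as gene-dense active chromatin. H3K4me3 marks active promoters, H3K27ac marks active promoters and enhancers, and an LPS-activated B cell grows, divides and begins to differentiate into an antibody-secreting cell.

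The promoters below belong to genes at the loci that took part in the most very long contacts, and to the pair Top2a and Kpna2, both of which rose on activation and which met in 1 contact. Each is the run of 200 bases upstream of the RefSeq transcription start in build GRCm38.p6, written 5′ to 3′ along the gene. The contacts and peaks themselves are in mm9 coordinates, which differ from these. Capitals mark exact matches, on either strand, to the GC box GGGCGG, the CCAAT box named for its letters, the ETS factor core CCGGAAG or the E box CACGTG.
Cdkn1b (chr6:134920201-134920400, plus strand): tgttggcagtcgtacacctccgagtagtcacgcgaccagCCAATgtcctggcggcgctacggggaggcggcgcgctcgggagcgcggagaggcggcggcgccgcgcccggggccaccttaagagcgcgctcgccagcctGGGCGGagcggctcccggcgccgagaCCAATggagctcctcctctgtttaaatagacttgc
Mcmbp (chr7:128740430-128740629, minus strand): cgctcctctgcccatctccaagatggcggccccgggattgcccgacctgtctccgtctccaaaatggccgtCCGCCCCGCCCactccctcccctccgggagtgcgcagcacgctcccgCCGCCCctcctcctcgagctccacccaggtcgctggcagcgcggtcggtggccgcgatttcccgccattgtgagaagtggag
Sec23ip (chr7:128744670-128744869, plus strand): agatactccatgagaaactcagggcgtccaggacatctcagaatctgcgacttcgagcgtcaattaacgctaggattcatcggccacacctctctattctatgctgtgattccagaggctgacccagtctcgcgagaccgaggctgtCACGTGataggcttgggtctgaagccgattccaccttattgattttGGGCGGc
Cdk4 (chr10:127063335-127063534, plus strand): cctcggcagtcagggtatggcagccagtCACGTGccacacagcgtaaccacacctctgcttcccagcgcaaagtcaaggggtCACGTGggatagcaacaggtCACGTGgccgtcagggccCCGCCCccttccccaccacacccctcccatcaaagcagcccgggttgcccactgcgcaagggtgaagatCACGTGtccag
Zfp324 (chr7:12965638-12965837, plus strand): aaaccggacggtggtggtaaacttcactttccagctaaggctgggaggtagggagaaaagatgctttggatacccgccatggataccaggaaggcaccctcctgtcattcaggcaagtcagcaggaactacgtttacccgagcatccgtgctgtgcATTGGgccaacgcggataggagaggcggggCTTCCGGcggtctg
Zbtb45 (chr7:13009853-13010052, minus strand): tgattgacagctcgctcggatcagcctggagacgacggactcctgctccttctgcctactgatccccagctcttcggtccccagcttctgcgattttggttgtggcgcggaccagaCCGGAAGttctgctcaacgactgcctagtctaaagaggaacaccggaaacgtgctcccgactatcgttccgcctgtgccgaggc
Top2a (chr11:99024190-99024389, minus strand): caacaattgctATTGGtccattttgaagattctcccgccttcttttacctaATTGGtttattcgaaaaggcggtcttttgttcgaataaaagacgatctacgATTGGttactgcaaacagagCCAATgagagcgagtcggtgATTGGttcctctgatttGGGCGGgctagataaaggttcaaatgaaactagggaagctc
Kpna2 (chr11:106999526-106999725, minus strand): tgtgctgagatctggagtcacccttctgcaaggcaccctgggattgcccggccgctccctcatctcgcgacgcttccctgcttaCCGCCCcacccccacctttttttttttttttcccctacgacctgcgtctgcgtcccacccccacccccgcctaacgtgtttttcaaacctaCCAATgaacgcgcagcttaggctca
Cdk4 carried 4 matches to CACGTG and Top2a 5 to CCAAT in these windows. The RefSeq table held 2800 promoters of 2266 tested genes at very long contacts, and 58.3% of these promoters held GGGCGG, against 54.4% of the 7482 promoters of 5833 tested genes at no very long contact and 31% of all 32851 promoters. The ETS core CCGGAAG occurred in 16.2%, 12.7% and 6.29% of these sets in the same order, CCAAT in 35.5%, 31.6% and 29.3%, and CACGTG in 8.50%, 7.30% and 5.26%. A match is a string in a window and not a measured binding site.

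Very long contacts rested on few reads. Of the 2960, 2123 (71.7%) had 5 reads, the lowest number in the list, 602 (20.3%) had 6, 153 (5.17%) had 7 and 14 had 10 or more. Contacts under 3 Mb with anchors of the same width of 5000 bp had a median of 8 reads, and 24.1% of them had 5. The z-score, the authors' measure of the excess over the reads predicted for each pair, went the other way, with a median of 11.6 (range 5.07 to 69.3) against 3.91 in those shorter contacts. Within the very long contacts the median z-score was 8.37 at 3 to 4 Mb, 12 at 5 to 7.5 Mb and 15.4 at 12.5 to 15 Mb, while the median number of reads was 5 in every distance bin. The number of contacts fell from 780 at 3 to 4 Mb to 285 at 12.5 to 15 Mb, and the median distance was 5.59 Mb. A high z-score at these distances thus went with no more than 5 or 6 reads for most contacts. No replicate values stand behind a single contact, because the runs were deposited as 1 list.

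**Figure D1:**
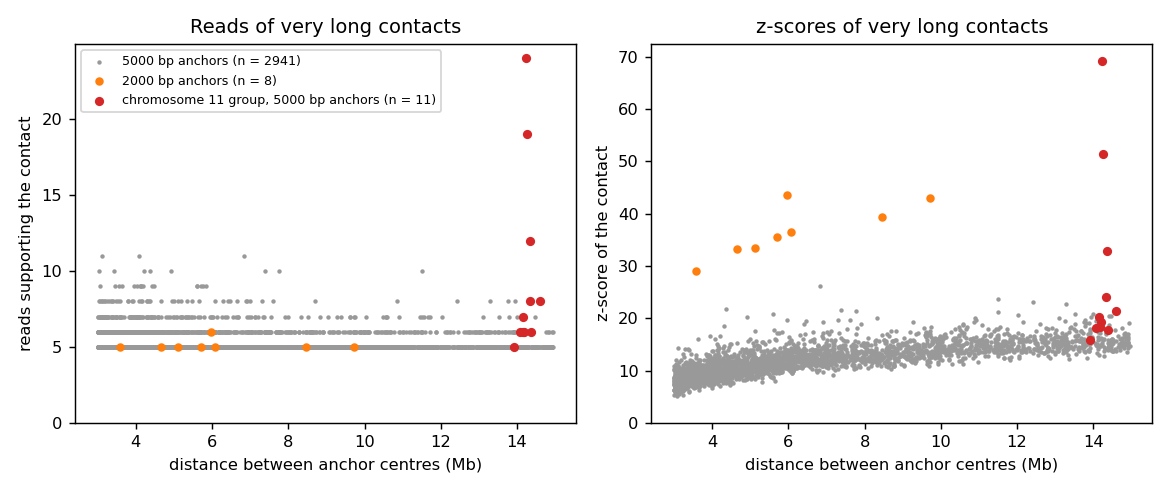
Reads (left) and z-score (right) of each very long contact against the distance between anchor centres in Mb, with 1 point per contact, grey for 5000-bp anchors, orange for 2000-bp anchors and red for the 11 contacts of a chromosome 11 group. Most contacts sit at 5 or 6 reads while the z-score rises with distance, and 3 red points with 24, 19 and 12 reads stand above the others.

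The contact nearest inside it lay 3.0019 Mb apart on chromosome 11 with 6 reads and a z-score of 8.71, followed by Leo1 with Mb21d1 on chromosome 9 at 3.00247 Mb with 6 reads and 8.49. The contact nearest outside lay 2.99828 Mb apart on chromosome 14 in a window with Wdfy4, with 6 reads and a z-score of 7.27, and the next joined Klhl25 to Det1 on chromosome 7 with 5 reads and 7.47. The 5 contacts nearest inside had 5 or 6 reads and z-scores of 5.30 to 10.9, and the 5 nearest outside had 5 or 6 reads and z-scores of 6.73 to 7.59.

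Chromosomes 7 and 5 held the most very long contacts. Chromosome 7 had 344, which is 15% of its contacts and 2.31 per Mb of the span covered by the list, and chromosome 5 had 277 (16.2%, 1.86 per Mb). Chromosome 11 had the most contacts of any length but only 207 very long ones (7.11%), and chromosome 17, with the MHC genes, had 118 (5.95%). On the X chromosome 4 of 137 contacts were very long (2.92%). Across the 20 chromosomes the number of very long contacts per Mb went with the number of expressed genes per Mb (Spearman rho 0.744), whereas the percentage of a chromosome's contacts that were very long did not rise with it (rho -0.251). Both are descriptions over chromosomes that share the same libraries and filter.

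**Figure D2:**
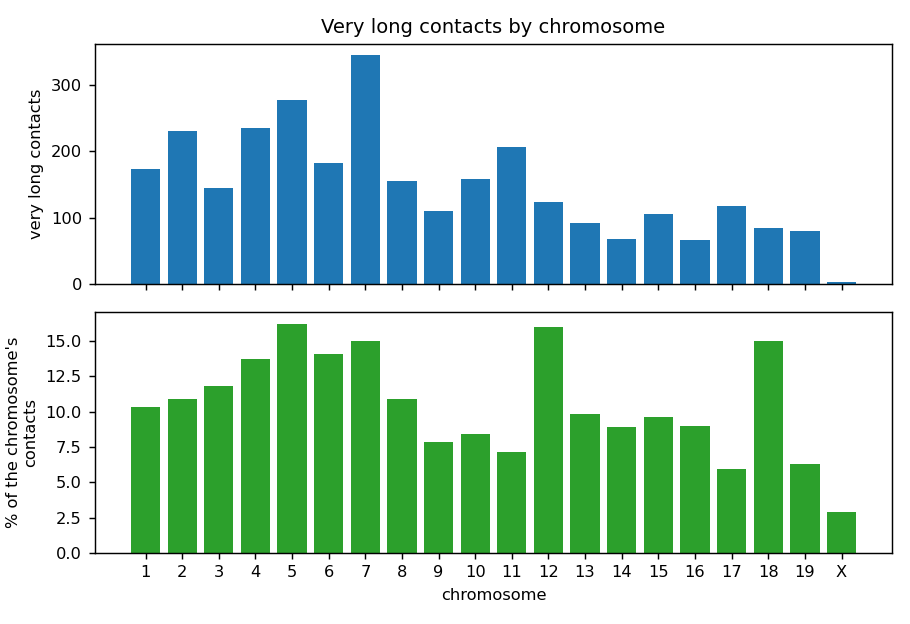
Very long contacts per chromosome, as a number (top) and as a percentage (bottom) of all contacts of that chromosome. Chromosome 7 has the most with 344, chromosome 5 the highest percentage with 16.2%, and the X chromosome has 4.

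Both ends of very long contacts were mostly promoter-like. Of the 5920 anchors, 95.2% overlapped a FAIRE peak, 90.6% an H3K27ac peak, 85.7% an H3K4me3 peak and 77.4% a STARR peak, and 72.7% held an end of a gene. For anchors of contacts under 3 Mb, which included narrower windows, these shares were 89.2%, 84.3%, 79.4%, 72.5% and 60.6%. Against contacts of 1 to 3 Mb with the same 5000-bp anchors the difference was small, with H3K4me3 at 85.8% against 84.0% and H3K27ac at 90.6% against 88.3%. Every very long contact had a STARR peak at 1 anchor or both, as did 27892 of all 27903 contacts of the filtered list, so this share is no property of distance. FAIRE was missing at both anchors of 0 very long contacts, H3K27ac of 24 and H3K4me3 of 28. Under 3 Mb the shares missing at both were 0.46%, 2.6% and 3.79%. The list holds enhancer-promoter contacts only, and the part of that filter in the high shares was not tested.

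H3K4me3 lay at both anchors of 2141 very long contacts (72.3%), at 1 anchor of 791 and at neither of 28. In 397 (13.4%) the partner of the H3K4me3 anchor had H3K27ac without H3K4me3, the pattern of an active enhancer. In 275 (9.29%) it had a FAIRE or STARR peak without either mark. In 119 (4.02%) it had no H3K4me3, H3K27ac, FAIRE or STARR peak. With 5000-bp anchors, 72.5% of very long contacts had H3K4me3 at both ends, against 69.8% at 1 to 3 Mb. The share of anchors with H3K4me3 was 84.9% at 3 to 5 Mb, 85.6% at 5 to 7.5 Mb, 87.1% at 7.5 to 10 Mb and 86.9% at 10 to 15 Mb, against 77.9% to 85.2% in the 5 distance bins under 3 Mb. H3K4me3 at both ends occurred in 71.5% of very long contacts with 5 reads, 73.6% with 6 and 76.6% of the 235 with 7 or more. These are shares over neighbouring regions of 1 list per assay, and no test was made of them.

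**Figure D3:**
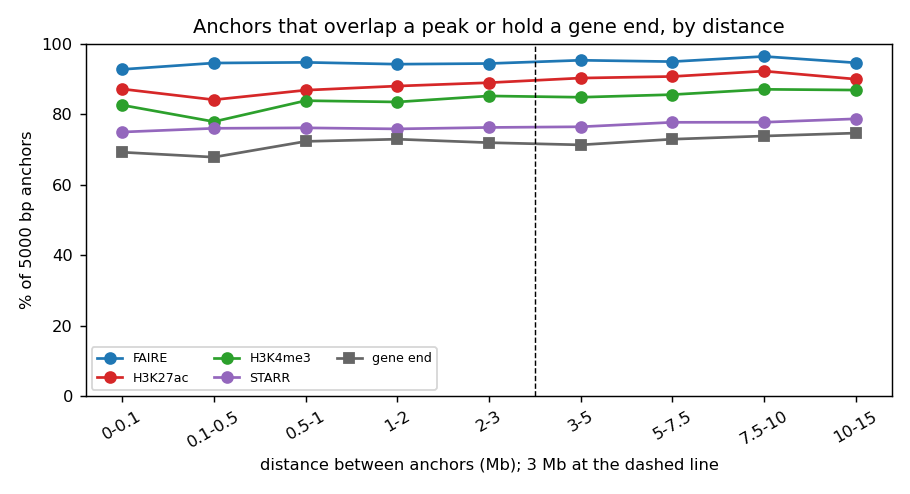
Percentage of 5000-bp anchors that overlap a FAIRE, H3K27ac, H3K4me3 or STARR peak or hold a gene end, by the distance between the anchors in Mb, with the very long contacts to the right of the dashed line at 3 Mb. The lines run nearly flat across 3 Mb, with H3K4me3 at 77.9% at its lowest (0.1 to 0.5 Mb) and 86.9% at 10 to 15 Mb.

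No anchor had identical coordinates in any pair of very long contacts, so overlapping anchors were merged to find loci that were used repeatedly. This gave 3475 loci, of which 2224 took part in 1 very long contact, 1251 (36%) in more than 1, 130 in 5 or more and 15 in 10 or more. Most of the loci (3176, 91.4%) also took part in contacts under 3 Mb. Loci used more often carried more peaks: H3K4me3 lay at 81.4% of loci with 1 contact, 90.3% with 2 to 4 and 93.1% with 5 or more, and STARR peaks at 74.7%, 81.2% and 92.3%. The merged loci with 5 or more contacts were also wider (median 9621 bp against 5000 bp with 1 contact), and the part of width in these shares was not tested. Linking loci through their contacts gave 751 separate groups, 474 of them single pairs. The largest lay on chromosome 7 and connected 143 loci by 195 contacts over 47.6 Mb, and the next, on chromosome 5, connected 130 loci by 169 contacts.

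The locus used most often lay at Cdkn1b, which encodes the cyclin-dependent kinase inhibitor p27 (chr6:134865080-134881355, mm9). It took part in 19 very long contacts with 18 partner loci, 108 reads in all, at 5.59 to 14.8 Mb. All partners but 1, Aebp2, lay to its left, and 15 of the 19 partner anchors had H3K4me3. The contact with the most reads, 9 at a z-score of 17.2, went to a super-enhancer at chr6:129178501-129188735 in the cluster of C-type lectin receptor genes, and a second anchor pair at the same place, with windows of 2000 bp, had 5 reads and a z-score of 35.5. The next went to the body of Cd69, an early activation receptor of lymphocytes, with 8 reads, and to Rad51ap1, a homologous recombination factor, with 7 reads at 7.99 Mb. Clec2d and an anchor with ends of Tulp3 and Rhno1 followed with 6 reads each, and Ncapd2, a condensin subunit, with 5. Of the 19 contacts, 12 had the minimum of 5 reads.

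Cdkn1b RNA stood at 55.2 and 67.6 in the resting samples and at 39.8 and 43.3 in the activated ones, on the authors' per-length scale. The groups did not overlap and the log2 fold change was -0.55 (SE 0.19, limma adjusted p = 0.0449), a call that was lost when any 1 of the 4 samples was left out. The other gene with an end in the locus, 1190002F15Rik, went from 3.72 and 6.09 to 33.8 and 55.5 (2.94, limma adjusted p = 0.000355). The locus thus held a faller and a riser, and its partners moved both ways. Rad51ap1 had 1.51 and 1.40 in resting and 16.1 and 24.2 in activated cells (log2 fold change 3.08, limma adjusted p = 0.000107). Ncapd2 had 6.88 and 6.68 against 38.5 and 59.0 (2.64, limma adjusted p = 0.000201). Both rose several-fold with no overlap between the groups. Cd69 had 35.5 and 42.5 against 72.9 and 69.9 (0.86, limma adjusted p = 0.00782, and 0.0927 without resting replicate 1). Clec2d had 157 and 216 against 106 and 78.5 (log2 fold change -1.0, limma adjusted p = 0.0168, lost without activated replicate 2 or resting replicate 2).

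The locus ranked next, chr7:135883188-135892719, holds the promoters of Mcmbp, which binds the MCM replication helicase, and Sec23ip, a factor of transport from the endoplasmic reticulum. It took part in 15 very long contacts, 8 to the left and 7 to the right, with 90 reads. Its contact with Cdr2 had 10 reads (z-score 21.4, 7.76 Mb) and that with Mki67, the gene of the proliferation marker Ki-67, had 7 (15.9, 7.02 Mb). Other partners were Rbbp6, Gtf3c1, Palb2 with Dctn5, Gga2, Copb1 and Pik3c2a. Sec23ip RNA was 10.1 and 10.1 in resting and 15.2 and 22.1 in activated cells, a log2 fold change of 0.80 (limma adjusted p = 0.0142, but 0.0665 without resting replicate 1 and 0.0624 without resting replicate 2). Mcmbp had 16.9 and 19.7 against 18.3 and 22.1, with overlapping groups and no call (limma adjusted p = 0.522). Mki67 rose from 8.59 and 9.79 to 91.4 and 171 (3.63, limma adjusted p = 0.000191).

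Further loci with many contacts also held gene ends. Hnrnpf, an RNA-binding protein gene (chr6:117844437-117861465), had 14 contacts, and all 14 partner anchors carried H3K4me3, among them Bid, M6pr, Jagn1, Irak2 and Ogg1. Ube2m, the NEDD8-conjugating enzyme, with Mzf1 (chr7:13620694-13628329) also had 14, to the zinc finger genes Zfp667 (10 reads, z-score 21.6, 7.39 Mb), Zfp78 (8 reads), Zfp787, Zfp628 and Zfp235 and to Tgfb1 with B9d2 at 12.8 Mb. Wbscr16 with Gtf2ird2 on chromosome 5 and Etnk1 on chromosome 6 had 13 each. Cdk4, a kinase of G1 progression, with Tspan31 and Agap2 (chr10:126495560-126516963) had 11, as did Tspan14 on chromosome 14 and Zfp324 on chromosome 7. G3bp1, Lmf2 with Ncaph2, Aacs, Zbtb45 and Tti2 had 10 each. All 15 loci with 10 or more contacts had FAIRE, H3K27ac and H3K4me3 peaks and a gene end, and all but Zfp324 had a STARR peak.

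**Figure D4:**
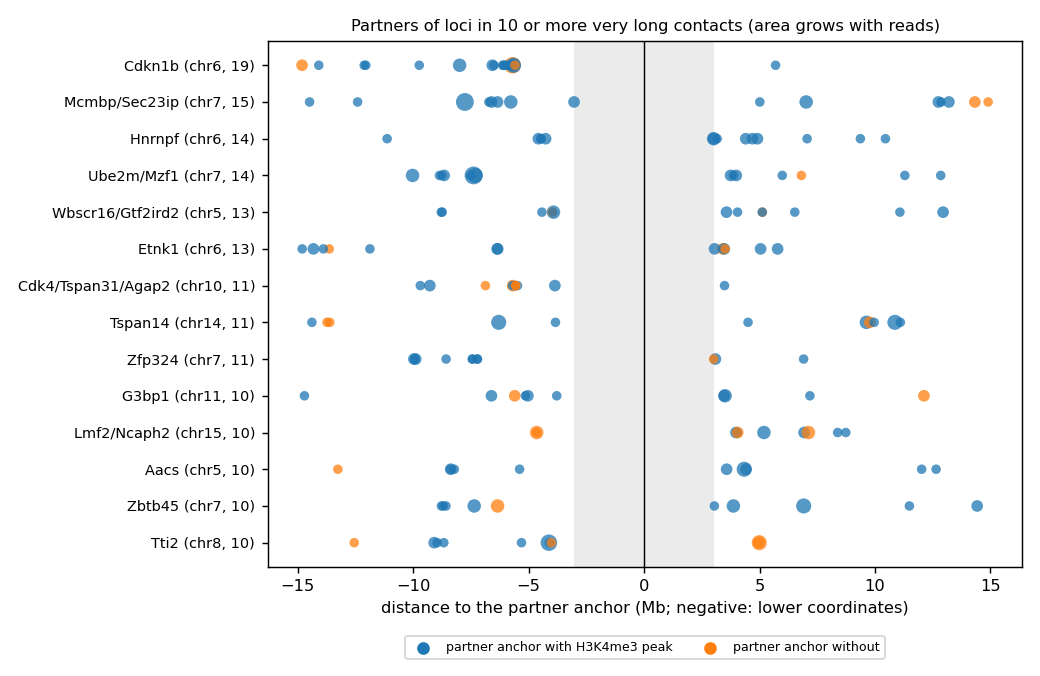
Merged loci with 10 or more very long contacts (14 of the 15), with 1 point per contact placed by the distance in Mb to its partner at lower (negative) or higher coordinates, sized by its reads and blue where the partner anchor has an H3K4me3 peak (orange where not). Cdkn1b has 19 contacts, all but 1 to the left, while most other loci have contacts on both sides.

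RNA at these loci did not move in 1 direction. Ube2m rose from 24.8 and 30.1 to 53.3 and 70.8 (log2 fold change 1.14, limma adjusted p = 0.00432), and Cdk4 from 40.9 and 44.3 to 118 and 148 (1.61, limma adjusted p = 0.000971). Aacs rose from 6.90 and 9.33 to 18.4 and 18.2 (1.10, limma adjusted p = 0.00248). These 3 calls held with each sample left out in turn. Hnrnpf (0.31), Etnk1 (-0.07), Gtf2ird2 (-0.31), Lmf2 (0.22) and Agap2 (-0.30) had log2 fold changes that did not pass the test. Mzf1 had 0.120 and 0.0882 in resting and 0.237 and 0.163 in activated cells, below the level tested. Tspan14 had 24.8 and 32.8 against 14.5 and 19.8 (-0.72, limma adjusted p = 0.0279), a call lost without activated replicate 1 or resting replicate 2. The calls of Wbscr16, Zfp324, Ncaph2, Zbtb45 and Tti2, with log2 fold changes of 0.49 to 0.65, were each lost when either resting sample was left out, and also without activated replicate 2 or, for Tti2, activated replicate 1. G3bp1 (0.91) lost its call when either resting sample was left out.

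The contacts with the most reads lay on chromosome 11 and joined a stretch of 192 kb to one of 670.35 kb at about 14 Mb. The group was picked after its values were seen. It comprised 11 contacts with 107 reads between chr11:87213193-87405155 and chr11:101176124-101846473. The strongest, with 24 reads and a z-score of 69.3 at 14.23 Mb, joined a window inside Tex14 (chr11:87258570-87263569), a gene best known from germ cells, to the start of Rdm1 (chr11:101486413-101491412), a gene related to RAD52. The distance is that of the mm9 assembly, and whether the genome of these cells has the same layout here was not tested. Both anchors had FAIRE, H3K27ac, H3K4me3 and STARR peaks. A parallel contact from Tex14 to Rdm1 had 19 reads (z-score 51.3), and one from Tex14 to Dhx8, an RNA helicase of splicing, had 12 (32.8). Other contacts of the group, with 5 to 8 reads, reached genes that included Dusp3, Nbr1, Psme3 and Rpl27 with Ifi35, and 1 joined Rad51c to Dhx8. No other very long contact had more than 11 reads, or with 5000-bp anchors a z-score above 26.2. The z-score differed with anchor width. The 8 very long contacts with 2000-bp anchors had 5 or 6 reads and z-scores of 28.9 to 43.5. Their median was 36.0, against 11.6 with 5000-bp anchors. The left stretch also took part in 7 contacts under 3 Mb and the right one in 47.

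Of the genes at anchors of this group that are reported here, Rad51c, Psme3 and Rpl27 rose, Rdm1 fell and Dhx8, Dusp3, Nbr1 and Ifi35 made no call. Tex14 was listed at 0.0745 and 0.0895 in resting and 0.0343 and 0.0538 in activated cells, below the level tested. Rdm1 had 15 and 17.2 against 12.2 and 10.2 (log2 fold change -0.49, limma adjusted p = 0.0402, lost when either resting sample or activated replicate 2 was left out). Rad51c, a homologous recombination factor, had 1.52 and 1.71 against 3.43 and 4.06 (0.86, limma adjusted p = 0.00528, and 0.0574 without resting replicate 1). Psme3, a proteasome activator (0.84), and Rpl27 (0.75) lost their calls without resting replicate 1, and Psme3 also without resting replicate 2.

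Outside that group the most reads were 11. Dnajc2 and Psmc2 on chromosome 5, a ribosome-associated chaperone and a proteasome ATPase, met Paxip1, a DNA damage response gene, at 6.83 Mb with 11 reads and a z-score of 26.2. Spcs3, a signal peptidase subunit, met Hmgb2, a chromatin protein of dividing cells, at 4.38 Mb with 10 reads. Zfp64 met Aurka, a mitotic kinase, with Cstf1 at 3.42 Mb with 10 reads, and Rars met Ccng1 at 4.92 Mb with 10. In each of these 4 contacts, picked after their values were seen, at least 1 gene at each end rose, whatever its level. They are 4 of 11 contacts with 10 or more reads outside the chromosome 11 group, of which 7 had a gene end at both anchors. In the other 3 of the 7, Zfp667 with Ube2m, Cdr2 with Sec23ip, and Klhl28 and Fam179b with Lrr1, a gene rose at 1 anchor only. The share over all very long contacts was not counted by this rule. These 7 contacts thus show nothing particular to contacts with many reads. In a contact of 11 reads on chromosome 12 between a window inside Fkbp3 and Rps29, neither gene was called. Spcs3 went from 33.1 and 41.1 to 122 and 161 and Hmgb2 from 2.69 and 2.93 to 19.2 and 32.9. Aurka went from 2.76 and 2.66 to 28.4 and 42.6 and Zfp64 from 4.93 and 4.63 to 10.4 and 12.8. The log2 fold changes were 1.90, 2.78, 3.27 and 1.12, with limma adjusted p of 0.000753, 0.000259, 8.55e-05 and 0.00169.

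The 10 longest contacts all had 5 or 6 reads. The longest joined Ddx54, an RNA helicase gene, to Hip1 on chromosome 5 over 14.9565 Mb with 5 reads, and its left anchor had none of the peaks. The next joined Tmem238 to Dmpk and Six5 on chromosome 7 over 14.9387 Mb with 6 reads (z-score 19.1). On chromosome 8 a window inside Gatad2a, a NuRD complex subunit, met Calr, the chaperone calreticulin, and Atp13a1 met the region of Trmt1 and Lyl1. Calr rose from 214 and 193 to 590 and 780 (log2 fold change 1.73, limma adjusted p = 0.00164), whereas Gatad2a had 17.4 and 19.0 against 18.2 and 21.5 and made no call.

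The 2960 very long contacts were spread over many pairs of regions, some of which held several. Counted in windows of 1 Mb, the contacts fell into 1836 window pairs. The pairs named here were picked for their counts and hold a small part of the contacts. The largest, on chromosome 5, joined the windows at 125 and 130 Mb by 24 contacts with 141 reads, with Aacs, Scarb1 and Dhx37 on the left and Psph, Cct6a, Chchd2, Mrps17 and Sbds on the right. On chromosome 4, 22 contacts with 121 reads joined the window at 147 Mb, with Mtor, Mfn2, Exosc10 and Clcn6, to the one at 151 Mb, with Icmt, Klhl21, Rpl22 and Acot7. The same left window also had 13 contacts with the window at 153 Mb and 12 with that at 154 Mb. Windows at 6 and 13 Mb of chromosome 7 were joined by 15 contacts with 89 reads, and windows at 24 and 35 Mb of chromosome 17 by 7 contacts with 41 reads, which linked Rnps1 and Mlst8 to the MHC genes H2-Q7 and H2-Q9. Each of these window pairs had several genes on both sides, and the RNA levels of these genes were not counted as a set. In the first pair Psph, the last enzyme of serine synthesis, rose from 5.46 and 7.59 to 30.1 and 44.6 (log2 fold change 2.34, limma adjusted p = 0.000396) and Cct6a from 44.7 and 57.6 to 109 and 159 (1.36, limma adjusted p = 0.00453).

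Gene clusters of 1 family seldom sat at both anchors. Zinc finger genes did so in 6 very long contacts, against 66 shorter ones. Of the 6, 5 joined the clusters of chromosome 7, namely Zfp78 to Zfp324, Zfp787 to Zfp110, Zfp444 to Zfp324, Zfp78 with Zfp28 to Zfp324, and Zfp524 with Zfp865 to Zfp324, at 7.21 to 8.58 Mb. The other joined Zfp367 to Zfp58 on chromosome 13 over 3.35 Mb, and each of the 6 had 5 reads. Histone, MHC region and proteasome genes met their own family in 0 very long contacts.

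Super-enhancers, taken from the deposited list of 48, took part in 66 very long contacts, through 25 of the 48. They lay at 1.13% of anchors of very long contacts and at 1.15% of anchors of contacts under 3 Mb. With 5000-bp anchors these shares were 1.12% and 0.87%. The super-enhancer at Junb, an AP-1 subunit (chr8:87498749-87510645), had 8, with Jund, Nr2f6, Rfxank, Fcho1 and the bacterial sensor Nod2 among its partners, at 3.22 to 14.8 Mb and with at most 6 reads. The one at Prkd2 and Strn4 (chr7:17425315-17431436) had 7, with Tgfb1, Kcnn4 and Zbtb32 among the partners and at most 8 reads, in the contact with Zbtb32 at 13.9 Mb. The super-enhancer beside Cd69 that met Cdkn1b had 6, and the one at Zfp36 on chromosome 7 had 5, reaching Cd79a, a subunit of the B cell receptor, Erf and Rps19. The super-enhancer at Akna had 3, among them one to Tlr4, the LPS receptor.

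Genes at the partners of these super-enhancers moved both ways. Kcnn4, a potassium channel, went from 5.2 and 6.74 to 20.8 and 30.6 (log2 fold change 1.92, limma adjusted p = 0.00067) and Nod2 from 1.00 and 1.07 to 2.98 and 3.51 (1.06, limma adjusted p = 0.00193). Tlr4 went from 10.4 and 10.2 to 4.23 and 4.53 (-1.07, limma adjusted p = 0.00131). Tgfb1, an inhibitory cytokine, had 86.3 and 84.9 against 49.3 and 38.5 (-0.96, limma adjusted p = 0.00699, and 0.0505 without resting replicate 1). Junb itself had 160 and 78.4 against 109 and 71.6, with overlapping groups and no call. Cd79a had 766 and 706 against 530 and 417 (-0.64, limma adjusted p = 0.0679, and 0.0465 without activated replicate 1).

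In all, 3308 genes of the RNA table (13.9% of 23812) had an end inside an anchor of a very long contact. Of these, 3018 reached 1 or more in 2 samples or more and were tested, 290 did not, and 100 passed through 1 group only. Between activated and resting cells 971 (32.2%) rose and 606 (20.1%) fell, or 52.3% called by limma at an adjusted p under 0.05. Over all 10863 genes tested, 54.4% were called, 28.2% higher and 26.2% lower. The 8023 tested genes at contacts under 3 Mb had 31.3% higher and 21.5% lower, so the share called at very long contacts lay near the background, with a split tilted to rises as at shorter contacts. Of the 270 tested genes at very long contacts and at no shorter one, 67 rose (24.8%) and 75 fell (27.8%), without that tilt. Without resting replicate 1 the calls at very long contacts were 883, and without resting replicate 2 they were 975, of which 70.1% were rises. Without the filter on low values limma called 297 genes in all and 23 at very long contacts, and of 90 called genes named or checked for the text 85 lost their call. In bulk RNA, fewer cells of a type and less RNA per cell cannot be told apart.

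Genes at very long contacts had a median activated level of 12.4 (11.9 and 12.9 in the 2 samples), against 11.6 for genes at contacts under 3 Mb and 0.189 over the whole table. Most of the table was low, with 43.0% of its genes at a mean of 1 or more in activated cells. That share was 89.8% at very long contacts and 87.6% at contacts under 3 Mb, both from the filtered list. In 1478 contacts (49.9%) both anchors held a gene end, and in 1357 of these (91.8%) both ends had a gene at 1 or more in activated cells, against 90.5% of the 3497 contacts of 1 to 3 Mb with the same anchor width. The levels at the 2 ends did not go together (Spearman rho 0.0463 over the 1478 contacts, which share loci and libraries, and 0.0247 in the shorter ones). For the next counts each end was given the call of its tested gene with the highest activated level, so other genes there were not counted. By this rule a riser sat at both ends of 174 contacts (11.8%, against 10.4% at 1 to 3 Mb). A faller sat at both ends of 51 (3.45% against 2.95%) and a riser opposite a faller in 203 (13.7% against 12.6%).

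**Figure D5:**
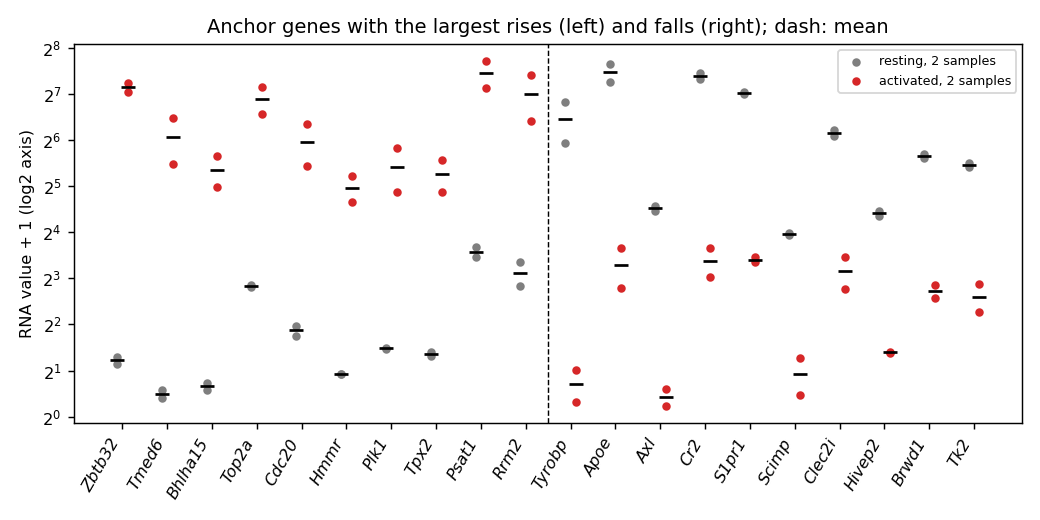
RNA of genes at anchors of very long contacts in resting and activated cells, as the value plus 1 on a log2 axis. Each sample is 1 point, with a dash at the mean. Shown are the 10 largest rises and 10 largest falls among called genes picked for groups that did not overlap. Zbtb32 rises from 1.21 and 1.46 to 149 and 131 and Tyrobp falls from 60.2 and 112 to 1.00 and 0.243.

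Differentiation and cell division genes were among the largest rises. Zbtb32, a repressor induced in antibody-secreting cells, was at 1.21 and 1.46 in resting and 149 and 131 in activated cells (log2 fold change 5.91, SE 0.16, limma adjusted p = 8.03e-06). It took part in 5 very long contacts, at 3.08 to 13.9 Mb. Bhlha15, the secretory cell factor MIST1, rose from 0.498 and 0.653 to 30.3 and 49.1 (4.65, limma adjusted p = 5.44e-05) and met Sbds and Tyw1 at 14.2 Mb with 5 reads. Both are factors of the plasma cell and secretory programme. Tmed6, a secretory pathway gene, rose from 0.329 and 0.500 to 43.8 and 88.4 (5.49, limma adjusted p = 6.48e-05). Bhlha15 and Tmed6 passed the filter on low values through the activated group only.

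Top2a, the topoisomerase of dividing cells, rose from 6.03 and 6.23 to 94.0 and 141 (log2 fold change 4.03, limma adjusted p = 6.21e-05). Its partner at 7.97 Mb was Kpna2, a nuclear import receptor, which rose from 1.5 and 2.1 to 10.8 and 19.5 (2.49, limma adjusted p = 0.000595). Both ends of this contact, which had 5 reads, thus rose, and both promoters are printed above. Cdc20 rose from 2.37 and 2.93 to 42.4 and 79.6 (4.02), Plk1 from 1.77 and 1.81 to 28.0 and 55.7 (3.86) and Hmmr from 0.899 and 0.909 to 24.1 and 36.0 (4.0), with limma adjusted p of 0.000124, 0.000159 and 5.65e-05. These 3 genes act in mitosis, and Hmmr passed the filter on low values through the activated group only. Rrm2, a ribonucleotide reductase subunit, rose from 6.13 and 9.23 to 83.9 and 168 (3.81, limma adjusted p = 0.000265), while Rps7, its partner in a contact of 9 reads, had 67.0 and 101.1 against 91.4 and 62.9 and made no call.

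Receptors of resting B cells and genes of other blood cells were among the largest falls. Cr2, the complement receptor CD21, went from 174 and 158 to 11.5 and 7.18 (log2 fold change -4.04, limma adjusted p = 6.87e-05), and S1pr1, the receptor that guides exit from lymphoid tissue, from 126 and 130 to 9.99 and 9.14 (-3.61, limma adjusted p = 4.02e-05). Hivep2 fell from 21.1 and 19.3 to 1.62 and 1.63 (-3.01, limma adjusted p = 5.01e-05), while Tnfaip3, the NF-kB inhibitor A20 and its partner at 5.05 Mb, rose from 16.3 and 14.6 to 47.6 and 40.3 (1.45, limma adjusted p = 0.000707). This contact, which had 5 reads, thus joined a faller to a riser.

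Tyrobp, a signalling adaptor of myeloid cells, fell from 60.2 and 112 to 1.00 and 0.243 (log2 fold change -5.72), Apoe from 151 and 200 to 5.93 and 11.6 (-4.23) and Axl from 22.6 and 21.1 to 0.512 and 0.171 (-4.10), with limma adjusted p of 8.98e-05, 0.000126 and 4.04e-05. Axl passed the filter on low values through the resting group only. Markers of myeloid cells moved the same way: 10 of 12 were lower in activated cells, and their summed level was 581 and 985 in resting and 13.1 and 15.3 in activated samples, with C1qa and C1qb at 0 in both activated samples. Erythroid and platelet markers summed to 2396 and 18107 in resting and 14.7 and 6.39 in activated samples, with 11 of 12 lower and Ppbp at 0 in both activated samples. T and NK cell markers summed to 28.5 and 45.5 against 5.66 and 3.59. Of the 12, 6 were tested, of which 5 were lower and 1, Cd28, was higher. Cd28 had 0.124 and 0.566 in resting and 2.09 and 1.55 in activated samples. Cd3d, Cd3e and Cd3g were at 0 in both activated samples, but only at 0.0491, 0.135 and 0.0668 in resting replicate 1. The part of these cells in the falls was not tested. The B cell marker Ms4a1 (682 and 855 in resting, 467 and 323 in activated cells) was high in all 4 samples, as the labelled cell type requires.

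Gene lists, chosen with earlier results of these data known, were present at very long contacts to different degrees. Over the whole table, 3308 of 23812 genes (13.9%) sat at a very long contact, and 3018 of the 10863 tested genes did. Of 24 cell cycle genes 13 (54.2%) sat at a very long contact and all 13 rose (12 without resting replicate 1), as did all 24 of the list. Of 20 NF-kB and LPS response genes 11 did, and over that whole list 7 rose and 6 fell. Among the 11, Tnfaip3, Traf1 (1.36), Ebi3 (1.93) and Bcl3 (0.59) rose and Birc3 (-1.21), Rel (-0.97) and Tlr4 fell, by log2 fold changes, with the call of Bcl3 lost when either resting sample was left out. Of 20 B cell identity genes, of which 15 fell in all, 6 did, with Pou2af1 higher (1.54) and Blk (-2.44), Cd79b (-1.33) and Cr2 lower, Cd79b losing its call without resting replicate 2. Of 16 loop and cohesin genes 6 did, among them Rad21, a cohesin subunit (0.88), and Wapal, which releases cohesin (0.80), both higher, and Esco1, which acetylates cohesin, lower (-0.82). The calls of Rad21 and Wapal were lost without resting replicate 1, and those of Rad21 and Esco1 without resting replicate 2. The plasma cell list had 1 of 16 genes there, Zbtb32, the myeloid list 1 of 12, Tyrobp, and the T and NK cell list 0 of 12.

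Large families differed in how many members had an anchor, beside 3308 of all 23812 genes and 3018 of the 10863 tested. Proteasome genes had 14 of 49, of which 11 rose and 0 fell, though 4 rose without resting replicate 1, beside 38 rises among all 47 tested proteasome genes. Cytosolic ribosomal protein genes had 36 of 102, of which 11 of 35 tested rose and 0 fell (4 rose without resting replicate 1), and mitochondrial ribosomal protein genes had 17 of 76 with 10 rises (5 without resting replicate 1). The whole lists had 26 rises among 95 tested cytosolic and 52 among 76 mitochondrial ribosomal protein genes. Zinc finger genes had 85 of 394, of which 6 of 82 tested rose and 31 fell, beside 28 rises and 116 falls among all 306 tested zinc finger genes. Without resting replicate 1 these falls were 9, and without resting replicate 2 they were 12. MHC region genes had 8 of 44 at an anchor, and 6 fell (4 when either resting sample was left out), beside 15 falls among all 30 tested MHC region genes. These counts give the lists' own direction and show nothing particular to the genes at anchors. Olfactory receptor genes had 0 of 1119 and vomeronasal receptor genes 0 of 351. Of these families, 3 olfactory and 0 vomeronasal receptor genes reached the level tested, and the 3 were lower in activated cells.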

How the data were processed

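The deposited contact list gives read counts and z-scores per contact over all Hi-C runs together. Per the submitters' processing notes the build was mm9 and the tools included HOMER, Bowtie, Bowtie2, STAR, TopHat2 and bedtools. Contacts were listed by the authors with at least 5 reads and a z-score of at least 3, in 32142 rows. The score of each contact is used as deposited. RNA values are in a table whose unit is not named and which was treated as FPKM as deposited by the authors, with sample sums of 244602 to 287884, so the depth in reads is unknown. Peaks were used as the authors' lists of 55126 FAIRE, 23938 H3K27ac, 16861 H3K4me3 and 17381 STARR peaks, with an overlap of 1 bp.

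A gene was placed at an anchor where an end of its locus lay inside. RNA was tested with limma 3.58.1 (R 4.3.3, trend and robust) on log2(value + 1), a scale that understates changes of low genes, for values of at least 1 in at least 2 samples, with Benjamini-Hochberg adjusted p over all genes, and the procedure was tested on simulated data. Fold changes are activated minus resting. Named were the contacts with extreme distance, reads and z-score, the most used loci, list members, and the 10 largest rises and falls. These rises and falls were taken among called genes whose groups did not overlap and whose higher group averaged 5 or more. Their calls and lack of overlap were thus set by the choice. Members and lists were chosen with earlier results of these data known. Partners, and genes named beside these, were chosen after their values were seen. Of 3303 member genes with a single row, 2438 matched a RefSeq promoter. The genome for mm9 was not used here, so anchor sequences were not printed. Some items are not reported here.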

Additional observations from a re-analysis of the deposited data

How the results depend on the processing

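Distance set the number of contacts: 4885 at 2 Mb or more, 1682 at 5 Mb or more, and 235 of those at 3 Mb or more had at least the median reads of all contacts. Anchors in more than 1 contact numbered 0 by identical coordinates, 1251 once merged and 1 at 2 Mb. With peaks within 1000 bp, or with the peak centre inside, H3K4me3 lay at 88.1% or 74.0% of anchors, H3K27ac at 92.9% or 80.1%, FAIRE at 98.3% or 93.3% and STARR at 81.2% or 74.7%. The median RNA level was 13.1 at 5 Mb or more, and 11.9 to 12.9 with 1 activated sample. Leaving out 1 sample at a time, limma called 2964 to 5693 genes in all and 883 to 1585 at very long contacts. Without a filter on low values it called 297 (21.5% of them rises) and 23 (69.6%). With the filter it called 1036 genes at contacts of 5 Mb or more. Rises were 51.9% of all calls and 61.6% of those at very long contacts, and 64.2% and 70.1% without resting replicate 2. Junb had 0.17 on the log2 scale without resting replicate 1, against -0.33 with all samples and -0.84 without resting replicate 2. The causes were not tested. Resting and activated samples share replicate numbers but no label pairs them. With the replicate block 6281 genes were called in all and 1719 at very long contacts, and of 133 genes named or checked for the text none of the 90 called lost its call and 5 gained one (Cdr2, Chchd2, Fkbp3, Icmt, Zfp36). Deviations of same-numbered samples correlated at 0.124. With 5 reads for most contacts and no replicate lists, single contacts have no replicate check.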
